A study of Rattus norvegicus with 6 samples.

Results

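Integrins and cadherins are the main families of adhesion receptors by which cells hold on to the extracellular matrix and to each other. They were taken here as all genes whose symbol begins with Itga, Itgb or Cdh followed by the name of a chain, apart from the Itgb1bp and Itgbl genes, with 1 probe for each gene. This gave 37 of the 26903 gene names on the arrays, which were 17 integrin chains, 19 cadherins and Itgb3bp. The last of these met the rule by its letters but encodes a nuclear centromere protein rather than a chain of an integrin, and is described on its own. Another 13 symbols of the same form, among them Itga2, Itga3, Itga6, Itgav, Itgb8 and Cdh4, had no probe that was named through its accession and were not analysed here. For several integrins only one partner of the pair was therefore measured.

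The ovaries came from Wistar rat pups injected intraperitoneally with 0.05 mg/kg LPS from Salmonella Enteritidis, or with the same volume of saline, on PND 3 and again on PND 5. They were collected on PND 7, and RNA was hybridized with 1 dye to 6 arrays, 3 for LPS and 3 for saline. The study's methods give 5 animals for each treatment, drawn from 2 litters, but which animals contributed to which array is not given in the sources used here, so that the p-values measure the spread between these 6 arrays only. All arrays lay on 1 slide. LPS replicate 1 shared a row of it with the saline arrays, and the other row held LPS replicates 2 and 3.

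An integrin is a pair of 1 alpha and 1 beta chain that spans the membrane, binds collagen, laminin, fibronectin or a receptor on another cell, and is linked to the actin cytoskeleton by talin and kindlins. Cadherins bind the same cadherin on the neighbouring cell in the presence of calcium and are anchored inside the cell by catenins. In the ovary, E-cadherin (Cdh1) and N-cadherin (Cdh2) are known from oocytes, granulosa cells and the surface epithelium, whereas VE-cadherin (Cdh5) belongs to endothelium. During the first postnatal week of the rat the oocyte nests break up and primordial follicles form, a process in which these contacts are remodeled.

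Levels are given as the log2 of the background-subtracted signal relative to the 75th percentile of the same array, so that 0 is the level of that percentile. A level was compared between arrays for the same probe only, because different probes bind with different strength. A probe was taken as well above background on an array where most of its spots were called so by the scanner software. Of the 37 genes, 20 were well above background on all 6 arrays, 8 on 1 to 5 arrays and 9 on no array. On 4 of the 8, Itgam, Itgae, Cdh10 and Cdh20, this held for LPS arrays alone, and no fold change is given for them because the bound that the dim arrays allow was below 1. This left 24 genes with a measured level in both treatments. The lowest level of any probe well above background was -4.87, -4.89 and -5.31 on LPS replicates 1, 2 and 3. On saline replicates 1, 2 and 3 it was higher, at -4.61, -4.20 and -4.53. A probe of the same level could therefore be well above background on LPS arrays and not on saline arrays, and such calls were not read as a difference between treatments. In whole ovaries, fewer cells of a type and less RNA per cell cannot be told apart.

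The promoters of the gene with the largest measured difference, Itga1, and of the epithelial chain Itgb6 are shown for reference, as the 250 bases before the start of each gene in RefSeq on GRCr8. Both lie on the minus strand, Itga1 at chr2:48545284-48545533 and Itgb6 at chr3:65530334-65530583. Capitals mark CACCTG or its reverse complement CAGGTG, the E-box bound by the repressors Snail and Slug, which are known for acting on epithelial adhesion genes.
Itga1: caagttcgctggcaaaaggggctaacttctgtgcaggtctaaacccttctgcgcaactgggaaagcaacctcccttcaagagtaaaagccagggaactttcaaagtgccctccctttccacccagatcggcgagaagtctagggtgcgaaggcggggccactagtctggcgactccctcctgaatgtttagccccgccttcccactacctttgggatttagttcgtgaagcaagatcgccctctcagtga
Itgb6: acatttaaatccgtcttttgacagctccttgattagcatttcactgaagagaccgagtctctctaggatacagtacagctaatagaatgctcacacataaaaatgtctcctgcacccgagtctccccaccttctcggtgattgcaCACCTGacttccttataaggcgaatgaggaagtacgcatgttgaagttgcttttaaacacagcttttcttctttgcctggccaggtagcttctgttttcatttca
The Itgb6 promoter held these letters once, as the capitals show, and the Itga1 window did not hold them. They occurred in 2 of the 22 promoters of integrins and cadherins that were in the table, and in 15.9% of all 33469 promoters over the same length. A match in letters is a description and not a binding site.

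Among the 24 genes measured in both treatments, Itga1, Itgb7 and Cdh17 were lower in LPS-treated ovaries at an unadjusted p under 0.05 and none was higher. These 3 genes compare with 4.29% of the 18283 genes measured in both treatments that had such a p in either direction, and 2.31% that had it and were lower. Only Itga1 also met the 2-fold criterion of the study, which 1.15% of those genes and 1.57% of all genes met. No integrin or cadherin passed after Benjamini-Hochberg adjustment in limma, the lowest adjusted p being 0.271, and no gene on the arrays did so (0.0%). The count after adjustment was 0 as well with the methods' t-test, which stands for the analysis of variance named in the study's general statistics and not for the arrays. The median log2 fold change of the 24 genes was -0.0064, beside 0.021 over all genes measured in both treatments.

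**Figure D1:**
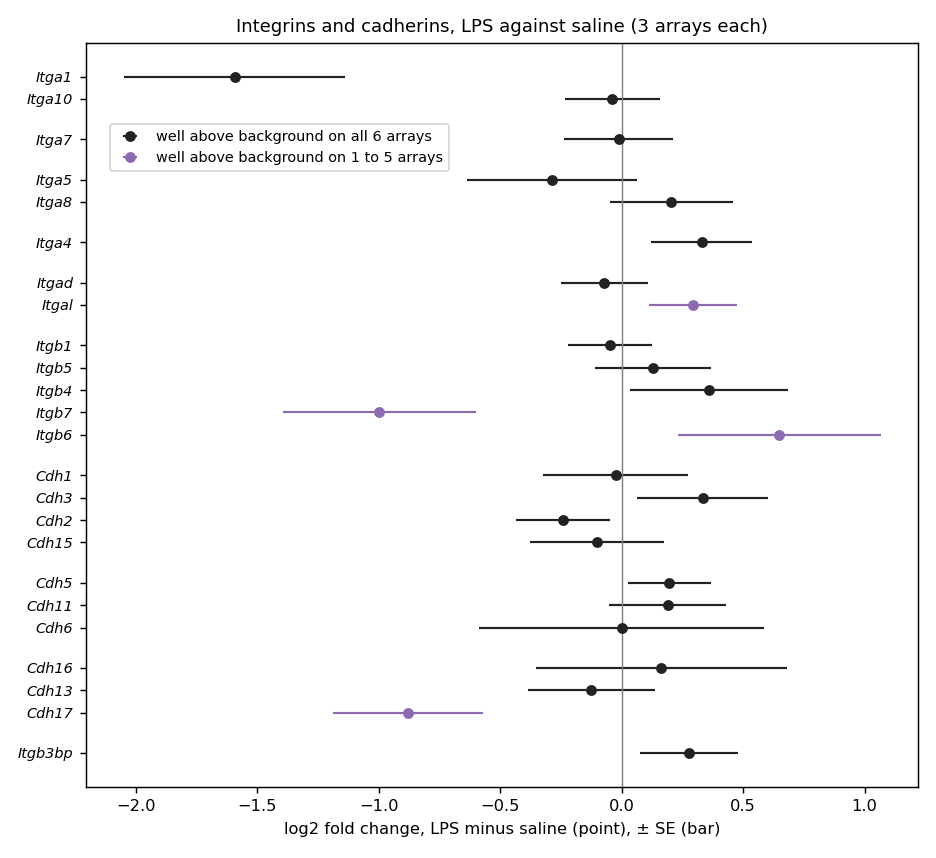
Log2 fold change of LPS over saline (points) with its SE (bars) for the 24 genes measured in both treatments, grouped from top to bottom as collagen-binding, laminin-binding, RGD-binding, Itga4, leukocyte alpha chains, beta chains, type I, type II and atypical cadherins, and Itgb3bp. Black marks genes well above background on all 6 arrays and purple those on fewer; Itga1 lies at -1.59, and the 19 other black points lie between -0.29 and 0.36.

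Over all 37 genes, 8 had an unadjusted p under 0.05, all lower in LPS-treated ovaries, beside 15.9% of all 26903 genes (2.22% higher and 13.7% lower). LPS and saline values did not overlap for 8 genes, Itgal above and Itga1, Cdh7, Cdh8, Cdh9, Cdh19, Cdh23 and Cdh26 below, beside 22.9% of all genes (4.67% above and 18.2% below). The number past the unadjusted p was 13 without saline replicate 1 (23.3% of all genes in the same fit), 3 without saline replicate 2 (5.01%), 4 without saline replicate 3 (11.0%) and 3 without LPS replicate 3 (6.04%). The number without overlap was 21 when saline replicate 1 was left out (40.6% of all genes) and 13 when LPS replicate 1 was (42.8%). The difference between 8 genes and the 3 described above came from probes well above background on no array.

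These were Cdh7, Cdh8, Cdh9, Cdh19 and Cdh23, and Cdh26 showed the same order of arrays. Cdh7, Cdh8, Cdh9 and Cdh19 are type II cadherins known mainly from the nervous system, and Cdh23 forms the tip links of sensory hair cells. All 6 had, on every array, at least 1 spot with a surrogate value, which the scanner software writes in place of a signal too dim to measure. For Cdh9, the levels were -7.12, -7.16 and -7.61 on LPS replicates 1, 2 and 3 and -6.46, -6.42 and -6.80 on saline replicates 1, 2 and 3. For Cdh7 they were -6.99, -6.99 and -7.48 under LPS and -6.71, -6.24 and -6.62 under saline. Saline arrays were above LPS arrays at these dim levels. The median of all genes that were well above background on no array moved likewise, from -6.90, -6.95 and -7.45 to -6.59, -6.27 and -6.63. The parts of the surrogate and of the scaling of each array in this were not tested. Of the 4031 genes with such spots on all 6 arrays, 75.7% were lower in LPS at an unadjusted p under 0.05, 0.0% were higher, and 90.3% did not overlap. The 5 of 6 cadherins with such a p were read against that share and not as a change in the ovary. After quantile normalization none of the 6 had an unadjusted p under 0.05.

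**Figure D2:**
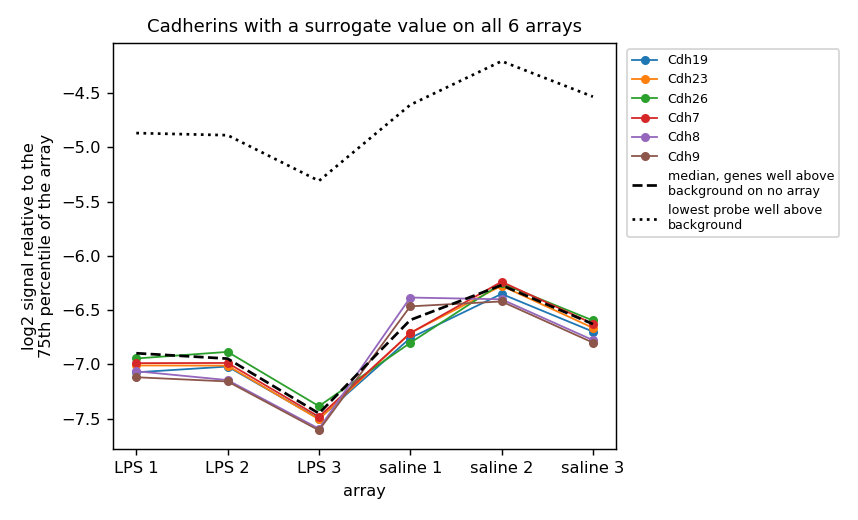
Level (log2, with 0 at the 75th percentile) on each of the 6 arrays for the 6 cadherins with spots of surrogate value on every array (coloured lines), the median of all genes well above background on no array (dashed) and the lowest probe well above background (dotted). The 6 lines run with the dashed line, between -7.61 and -6.24, and stay below the dotted line on every array.

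The remaining genes well above background on no array were Itgb2, the beta chain shared by leukocyte integrins, Itgb3, the beta chain of the platelet receptor for fibrinogen, and the type II cadherin Cdh22. Their levels ranged from -6.74 to -4.20 for Itgb2, from -6.47 to -4.60 for Itgb3 and from -6.97 to -4.90 for Cdh22, and LPS and saline overlapped for each. Itgb2 was highest on saline replicates 2 and 3 and lowest on saline replicate 1.

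The alpha chain Itga1 pairs with Itgb1 to form a receptor for collagen and laminin that is known from smooth muscle, fibroblasts and small vessels. Its level was -1.02, -1.47 and -1.70 on LPS replicates 1, 2 and 3 and -0.76, 1.03 and 0.32 on saline replicates 1, 2 and 3. All LPS arrays lay below all saline arrays, but saline replicate 1 was nearer to the LPS arrays than to the other saline arrays. The difference was -1.59 on the log2 scale, or 3.02-fold (SE 0.46, unadjusted p = 0.011, limma, adjusted p = 0.271). Leaving out 1 array at a time gave values from -2.07 to -1.18, each with an unadjusted p under 0.05. A fit with the row of the slide as a block gave -1.22 (unadjusted p = 0.104), a value that rests on LPS replicate 1 as the single LPS array in the row of the saline arrays and assumes that it varies like the others.

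Saline replicates 2 and 3 also carried transcripts of the adrenal gland. The signals of 11 adrenal medulla markers, as multiples of the 75th percentile, summed to 3.52 to 6.01 on the LPS arrays, 6.39 on saline replicate 1, 98.2 on saline replicate 2 and 59.7 on saline replicate 3. Those of 8 adrenal cortex markers summed to 1.89 to 2.88 on the LPS arrays, 3.36 on saline replicate 1, 191 on saline replicate 2 and 245 on saline replicate 3. All 11 and all 8 were higher on these 2 arrays than on any other, and defining markers such as Chga, Chgb, Cyp11b1 and Mc2r were well above background on these 2 arrays alone. Itga1 moved with them in that it was highest on saline replicates 2 and 3, although its order between the pair followed the medulla and not the cortex. Against saline replicate 1 alone, the difference of Itga1 was -0.64, a comparison with a single saline array that carries no spread of its own. Of 8 endothelial markers, 5 were also higher on both saline replicates 2 and 3 than on the other 4 arrays, beside 17.3% of all genes. Tek, among these 5, was well above background on no array. The part of adrenal RNA or of endothelium in the difference was not tested.

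Of all 37 genes, 10 were higher on both of these saline arrays than on the other 4 arrays (27.0%, beside 17.3% of all genes), and 9 were lower on both (24.3%, beside 11.8%). The 10 included Itga1, Itga5, Itgb7, Cdh2 and Cdh17, and the 9 included Itgal, Itgb6, Cdh3, Cdh5, Cdh11 and Cdh16. Among the 20 genes well above background on all 6 arrays, 3 were higher and 5 were lower on both (15.0% and 25.0%, beside 13.6% and 15.3% of all genes so detected). The 10 also included Cdh7, Cdh19, Cdh23, Cdh26 and Itgb2, which were well above background on no array.

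**Figure D3:**
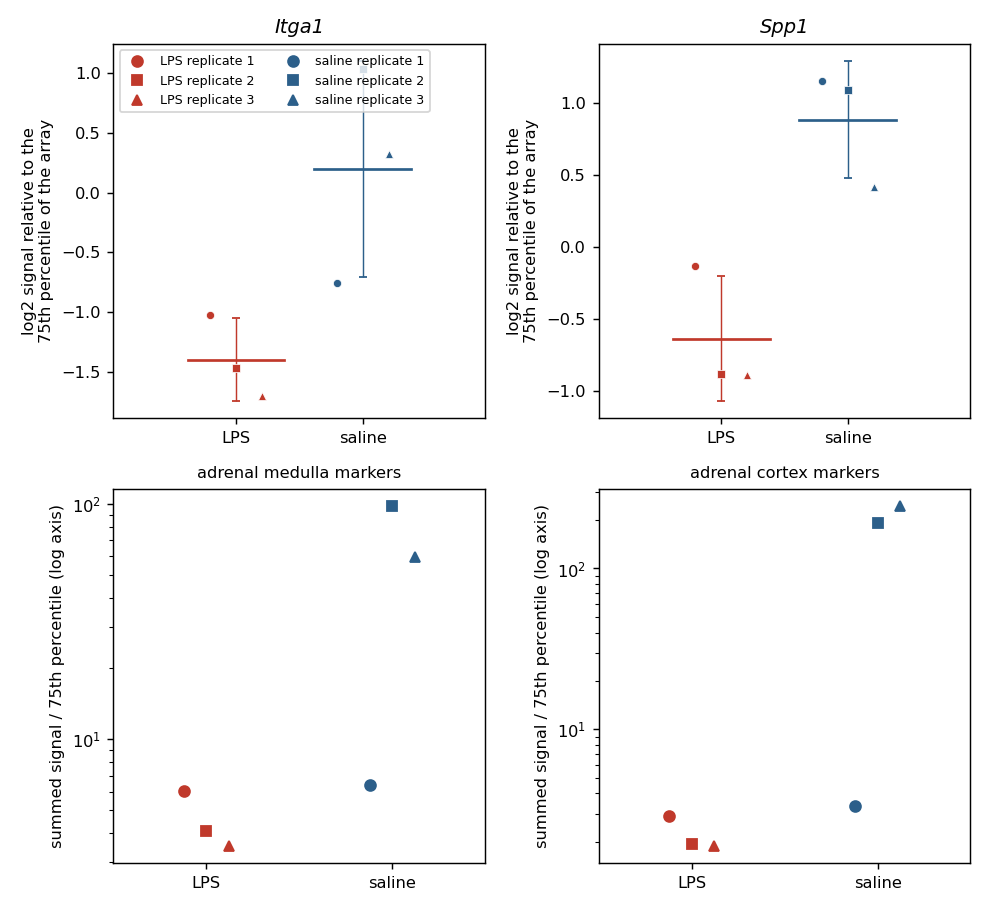
Levels of Itga1 and of the integrin ligand Spp1 on each array (upper panels, log2 scale; lines are means, bars SD) and the summed signals of the adrenal marker lists on a log axis (lower panels). Itga1 is highest on saline replicates 2 and 3, the arrays with adrenal sums from 59.7 to 245, whereas Spp1 is high on all saline arrays.

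The other collagen-binding chain on the arrays, Itga10, known from cartilage, did not show the same order. It ranged from -3.17 to -2.60 under LPS and from -2.92 to -2.78 under saline. Itgb1, the beta chain shared by most matrix receptors and the partner of Itga1, had levels of 3.36, 3.76 and 3.55 on LPS replicates 1, 2 and 3 and 3.61, 3.60 and 3.61 on saline replicates 1, 2 and 3. The groups overlapped, with a log2 fold change of -0.047 (SE 0.17, limma, adjusted p = 0.978), and this small value turned positive under several alternatives.

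Itgb7 pairs with Itga4 or Itgae on lymphocytes that home to mucosa. Its level was -3.69, -4.82 and -4.94 on LPS replicates 1, 2 and 3 and -3.98, -3.08 and -3.40 on saline replicates 1, 2 and 3. LPS replicate 1 was above saline replicate 1, so the groups overlapped, and the signal was well above background on 2 LPS arrays and on all saline arrays. The log2 fold change was -0.998 (SE 0.40, unadjusted p = 0.042, limma, adjusted p = 0.290). It was no longer past an unadjusted p of 0.05 with the replicate number as a block, where the unadjusted p from limma was 0.082. The same held without LPS replicate 2, LPS replicate 3, saline replicate 2 or saline replicate 3, where that p ranged from 0.102 to 0.125. Within the slide row that held both treatments, with LPS replicate 1 as the single LPS array, it was -0.21. The unadjusted p was 0.104 with the methods' t-test and 0.200 without normalization between arrays, and without saline replicates 2 and 3 the value was -0.51. The partners Itga4 and Itgae did not show this order of arrays. Itga4, which binds fibronectin and Vcam1, had levels of -2.82, -2.30 and -2.40 under LPS and -3.01, -2.83 and -2.67 under saline, with a log2 fold change of 0.33 (SE 0.21, limma, adjusted p = 0.542). Itgae was well above background on LPS replicate 1 alone, at -3.88, and ranged from -5.68 to -4.32 elsewhere.

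Itgb6 pairs with Itgav on epithelial cells, where it releases TGF-beta from its latent form. Its level was -3.35, -4.13 and -3.97 on LPS replicates 1, 2 and 3 and -3.58, -4.89 and -4.93 on saline replicates 1, 2 and 3. Saline replicate 1 lay among the LPS arrays, and of the saline arrays it alone was well above background. The log2 fold change was 0.65 (SE 0.42, limma, adjusted p = 0.557). With the replicate number as a block the unadjusted p was 0.026, without saline replicate 1 the value was 1.09 with an unadjusted p of 0.009 (23.3% of all genes had one under 0.05 in that fit), and without saline replicates 2 and 3 it was -0.24.

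Itgb4, the beta chain of hemidesmosomes, was highest on LPS replicate 1 at 1.32 and ranged from 0.01 to 0.41 on the other 5 arrays. Itgb5, which binds vitronectin, ranged from 1.81 to 2.52 under LPS and from 1.91 to 2.29 under saline. For both genes LPS and saline overlapped.

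The chains that bind RGD motifs in fibronectin and related ligands overlapped between treatments. Itga5, the alpha chain of the main fibronectin receptor, had levels of -0.92, -0.21 and -0.95 under LPS and -1.06, -0.12 and -0.025 under saline, with a log2 fold change of -0.29 (SE 0.35, limma, adjusted p = 0.844). Itga8, whose ligand nephronectin acts in kidney development, ranged from -2.13 to -1.30 under LPS and from -1.97 to -1.71 under saline. Itga7, the laminin-binding chain of muscle, had levels of -2.48, -2.81 and -2.88 under LPS and -2.41, -2.69 and -3.04 under saline, with a log2 fold change of -0.012 (SE 0.22, limma, adjusted p = 0.997).

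Of the leukocyte alpha chains, Itgal, the alpha chain of the receptor by which leukocytes bind Icam1, was the only integrin or cadherin whose LPS values all lay above the saline values. It was at -3.95, -3.94 and -3.89 on LPS replicates 1, 2 and 3 and at -4.08, -4.48 and -4.10 on saline replicates 1, 2 and 3, and was well above background on all arrays except 1 of the saline arrays. The gap between the nearest arrays was small, and the log2 fold change of 0.29 did not pass (SE 0.18, unadjusted p = 0.150, limma, adjusted p = 0.527). Its direction turned with normexp background correction (-0.073) and without background subtraction (-0.080). Itgam, the alpha chain of the complement receptor of myeloid cells, was at -4.32, -4.40 and -4.72 on the LPS arrays, well above background on each, and at -4.50, -4.88 and -4.75 on the saline arrays, above background on none, and the groups overlapped. Itgad, a chain of tissue macrophages, was at -3.11, -3.05 and -3.44 under LPS and at -3.03, -3.20 and -3.15 under saline, with a log2 fold change of -0.071 (SE 0.18, limma, adjusted p = 0.960). An unadjusted p under 0.05 with a higher level under LPS was seen for 3 of 11 macrophage markers (2.22% of all genes were higher at such a p). Of the 3, Csf1r and Adgre1 were well above background on all arrays, but Mrc1 was so on the LPS arrays alone. The summed signal of the 11 markers was 12.8 to 12.9 on the LPS arrays and 10.2 to 11.8 on the saline arrays. Among the 9 neutrophil and lymphocyte markers, whose sums were 0.650 to 0.781 under LPS and 0.491 to 1.02 under saline, none was higher at such a p, and the 1 that was lower, the T cell gene Cd3e, was well above background on no array. The part of these cells in the leukocyte integrins was not tested.

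**Figure D4:**
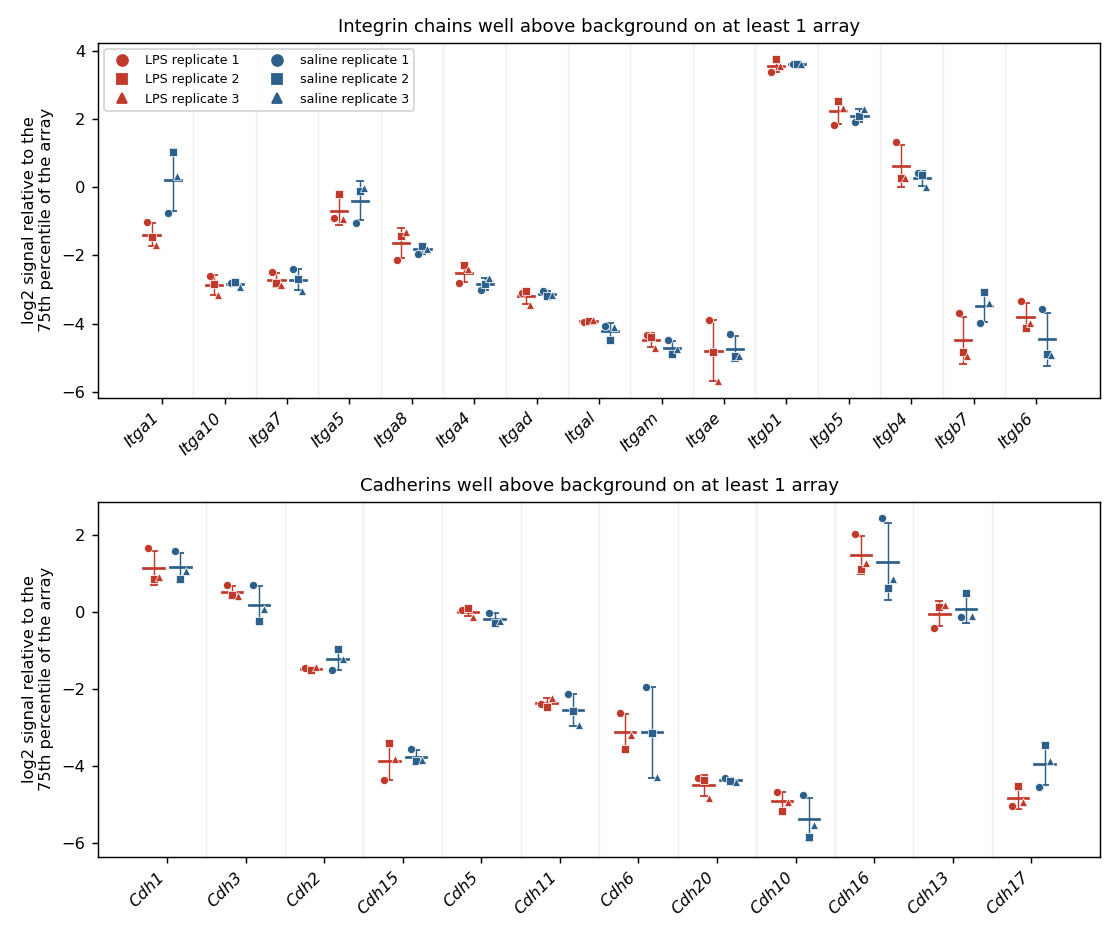
Level of each integrin chain (upper panel) and cadherin (lower panel) that was well above background on at least 1 array, on the log2 scale with 0 at the 75th percentile. Each symbol is 1 array (circles, squares and triangles for replicates 1, 2 and 3), lines are means and bars SD; heights are to be compared within a gene only, and LPS and saline are separate for Itga1 and Itgal alone.

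The classical or type I cadherins were all well above background on all 6 arrays, and none had an unadjusted p under 0.05. Cdh1, E-cadherin of epithelia and oocytes, was at 1.64, 0.84 and 0.90 on LPS replicates 1, 2 and 3 and at 1.56, 0.84 and 1.07 on saline replicates 1, 2 and 3. The log2 fold change was -0.025 (SE 0.30, limma, adjusted p = 0.995), and the 2 arrays of replicate 1 stood above the other 4. Cdh2, N-cadherin, known from granulosa cells and germ cells, ranged from -1.53 to -1.45 under LPS and was at -1.52, -0.97 and -1.22 on saline replicates 1, 2 and 3. Cdh3, P-cadherin of basal epithelia, was at 0.68, 0.43 and 0.41 under LPS and at 0.70, -0.25 and 0.07 under saline. Cdh15, M-cadherin of muscle, ranged from -4.38 to -3.40 under LPS and from -3.89 to -3.57 under saline. In none of the 4 were the LPS and saline values separate.

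Of the type II cadherins, Cdh5, Cdh11 and Cdh6 were well above background on all 6 arrays. Cdh5, the cadherin of endothelial junctions, was at 0.05, 0.10 and -0.14 under LPS and at -0.03, -0.30 and -0.25 under saline, with a log2 fold change of 0.20 (SE 0.17, limma, adjusted p = 0.729). Among 8 endothelial markers 0 had an unadjusted p under 0.05, and their summed signal was 9.63 to 15.1 under LPS and 9.85 to 17.0 under saline. Cdh11, a cadherin of mesenchyme and bone, was at -2.39, -2.48 and -2.23 under LPS and at -2.14, -2.58 and -2.95 under saline, with a log2 fold change of 0.19 (SE 0.24, limma, adjusted p = 0.858). Cdh6, known from the kidney, varied most among these, from -3.57 to -2.62 under LPS and from -4.31 to -1.95 under saline. Cdh20 ranged from -4.83 to -4.32 and Cdh10 from -5.85 to -4.67 over the 6 arrays.

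Of the atypical cadherins, Cdh16 and Cdh13 were well above background on all 6 arrays. Cdh16, a cadherin of kidney tubule and other epithelia, was at 2.02, 1.11 and 1.25 on LPS replicates 1, 2 and 3 and at 2.44, 0.61 and 0.86 on saline replicates 1, 2 and 3. The log2 fold change was 0.16 (SE 0.52, limma, adjusted p = 0.973), but -0.97 when saline replicates 2 and 3 were left out. Cdh13, which has no cytoplasmic tail and is anchored by a lipid, ranged from -0.42 to 0.16 under LPS and from -0.14 to 0.49 under saline. Cdh17, a cadherin of liver and intestine, was at -5.05, -4.53 and -4.95 under LPS and at -4.55, -3.47 and -3.88 under saline. It was well above background on 2 arrays of each treatment, and LPS replicate 2 lay just above saline replicate 1. The log2 fold change was -0.88 (SE 0.31, unadjusted p = 0.026, limma, adjusted p = 0.273). The unadjusted p rose to between 0.067 and 0.080 when LPS replicate 1, LPS replicate 3, saline replicate 2 or saline replicate 3 was left out, and it was 0.0662 with the methods' t-test, 0.0504 without background subtraction, 0.0673 after quantile normalization and 0.311 without normalization between arrays. In limma the unadjusted p was lower, at 0.0066, with the replicate number as a block (20% of all genes under 0.05). Without saline replicate 1 it was 0.0038 (23.3% of all genes under 0.05), at a log2 fold change of -1.17. With normexp background correction it was 0.0213. The slide row as a block gave a value of -1.09, with LPS replicate 1 as the single LPS array in the shared row. The value was -0.30 when saline replicates 2 and 3 were left out together. Like Itga1, Cdh17 was highest on the 2 saline arrays with adrenal transcripts.

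Itgb3bp was at 0.87, 0.75 and 0.83 on LPS replicates 1, 2 and 3 and at 0.86, 0.49 and 0.26 on saline replicates 1, 2 and 3. The groups overlapped, with a log2 fold change of 0.28 (SE 0.20, limma, adjusted p = 0.633).

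For several genes of these families, epithelial ones among them, the arrays stood apart by replicate number, as they did for a similar share of all genes. The 2 arrays of replicate 1, 1 of each treatment, were above the other 4 arrays for 11 of the 37 genes, which were Itga7, Itgae, Itgb4, Itgb6, Itgb3bp, Cdh1, Cdh3, Cdh6, Cdh10, Cdh16 and Cdh20. They were below the other 4 for Itga8, Itgb5 and Cdh13. These shares of 29.7% and 8.11% lay near those of all genes, 25.5% and 10.4%. Among the 20 genes well above background on all 6 arrays the shares were 35.0% and 15.0%, beside 29.4% and 16.6% of all genes so detected. All 9 epithelium and oviduct markers were above the other 4 arrays on both replicate 1 arrays. Their summed signal was 70.2 on LPS replicate 1 and 68.7 on saline replicate 1, and 42.3, 40.2, 25.5 and 34.3 on LPS replicates 2 and 3 and saline replicates 2 and 3. The 7 kidney tubule markers summed to 1.16 and 1.095 on LPS replicate 1 and saline replicate 1 and to 0.622 to 0.869 on the other 4 arrays. Oocyte markers were lowest on LPS replicate 1, with sums of 17.0, 47.6 and 38.9 on LPS replicates 1, 2 and 3 and 23.0, 20.3 and 34.0 on saline replicates 1, 2 and 3. None of the 9 epithelial or 9 oocyte markers had an unadjusted p under 0.05 between treatments. Of the other marker lists, 1 of 9 granulosa cell markers was higher (Kitlg), 1 of 7 platelet markers (Gp1ba), 1 of 7 kidney tubule markers (Slc34a1) and 1 of 8 Schwann cell and neuron markers (Stmn2) were lower, and 0 of 10 muscle markers had such a p. Over all genes, 2.22% were higher and 13.7% were lower at such a p. Gp1ba and Slc34a1 were well above background on no array, and Stmn2 on 2 saline arrays alone. The part of the amount of epithelial or kidney tissue in the adhesion genes was not tested.

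**Figure D5:**
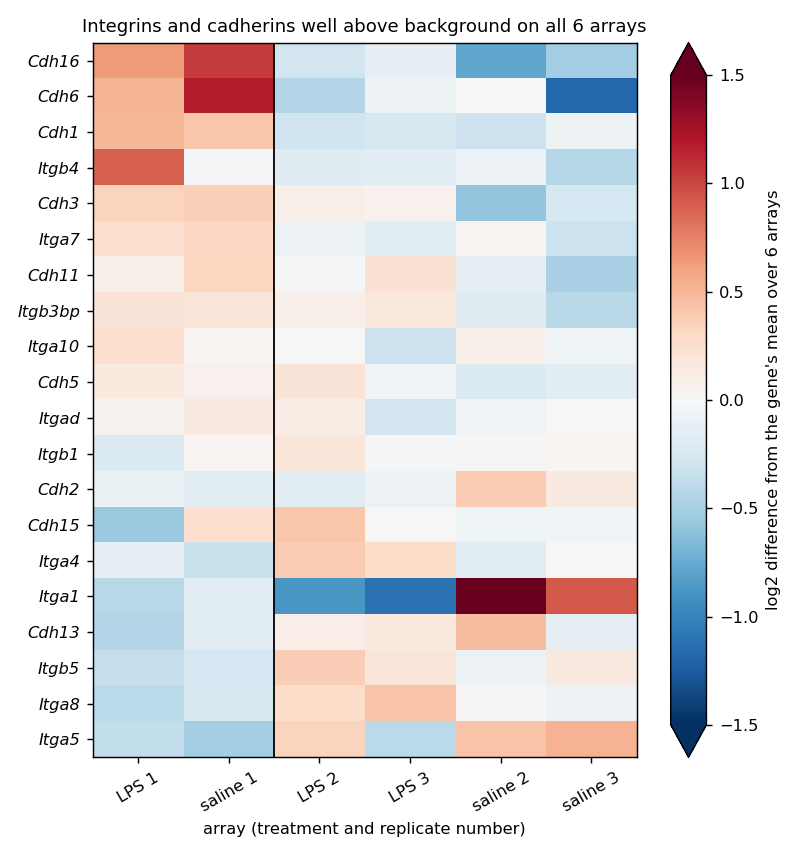
Difference of each array from the gene's own mean over the 6 arrays (colour, log2) for the 20 genes well above background on all arrays, with both replicate 1 arrays to the left of the line. Cdh16, Cdh6, Cdh1 and Cdh3 are red on both replicate 1 arrays, and Itga1 is red on saline replicates 2 and 3 alone.

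Genes that act with these receptors were taken from lists by role. Of 28 cytoplasmic and membrane proteins that bind or act on integrins, 24 of them well above background on all 6 arrays, 1 was higher and 0 were lower at an unadjusted p under 0.05, a share of 3.57% beside 15.9% of all genes. None of the 24 had such a p, beside 3.91% of all genes so detected. The talin Tln1 ranged from 1.55 to 1.69 under LPS and from 1.63 to 1.86 under saline, and Ilk, which couples integrins to actin, from 3.01 to 3.33 and from 2.96 to 3.12. The 1 gene was Crk, an adaptor protein, named here after its values had been seen, at -3.95, -5.14 and -4.07 under LPS and from -6.20 to -5.30 under saline. It was well above background on 2 LPS arrays and on no saline array.

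Of 21 integrin ligands, 0 were higher and 2 were lower at an unadjusted p under 0.05 (9.52%, beside 15.9% of all genes). Among the 19 well above background on all 6 arrays, only Spp1 had such a p, beside 3.91% of all genes so detected. Spp1, osteopontin, is a secreted RGD ligand of several integrins. It was at -0.14, -0.88 and -0.89 on LPS replicates 1, 2 and 3 and at 1.15, 1.09 and 0.42 on saline replicates 1, 2 and 3. All LPS arrays lay below all saline arrays, with a log2 fold change of -1.52 (SE 0.30, unadjusted p = 0.002, limma, adjusted p = 0.271). Unlike Itga1, Spp1 was highest on saline replicate 1, where the adrenal marker sums (6.39 for medulla and 3.36 for cortex) were slightly above those of the LPS arrays. Its value was -1.79 without saline replicates 2 and 3, which leaves a single saline array. The part of adrenal RNA in the difference of Spp1 was not tested. Leaving out 1 array at a time gave -1.77 to -1.39, and within the slide row that held both treatments, where LPS replicate 1 was the single LPS array, the value was -1.02. The other was Thbs1, thrombospondin, named after its values had been seen, which was well above background on no array. The matrix ligands Fn1, fibronectin, and Lamc1, a laminin chain, overlapped between treatments, from 2.56 to 2.97 under LPS and 1.92 to 2.99 under saline for Fn1, and from 2.88 to 2.97 and 2.89 to 3.18 for Lamc1. Vcam1, the ligand of the Itga4 receptor, was at -0.33, -1.04 and -0.81 under LPS and at -0.56, 0.38 and 0.095 under saline.

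Of 14 catenins and other cytoplasmic partners of cadherins, 0 were higher and 1 was lower at an unadjusted p under 0.05 (7.14%). Of 9 desmosomal and large cadherins, 0 were higher and 1 was lower (11.1%). The share over all genes was 15.9%. It was 3.91% over genes well above background on all 6 arrays, as 12 of the 14 and 5 of the 9 were. The lower genes were Ajap1 and Dsg4, named after their values had been seen, and both were well above background on no array. Beta-catenin, Ctnnb1, was at 2.05, 1.87 and 2.30 under LPS and at 1.80, 1.77 and 1.93 under saline, and alpha-catenin, Ctnna1, ranged from 1.72 to 1.98 under LPS and from 1.70 to 1.86 under saline. Median log2 fold changes of the lists were -0.0095 for the integrin-binding proteins, 0.052 for the ligands, 0.045 for the catenins and -0.077 for the desmosomal and large cadherins. The median was -0.043 over all genes and 0.013 over those well above background on all 6 arrays.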

How the data were processed

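The authors deposited spot intensities of each array as written by Agilent Feature Extraction, with a processed signal that is net of background and carries a surrogate for spots too dim to measure, and a table of the same intensity values for the whole series. From these, log2 values relative to the 75th percentile of each array were computed here. Flagged spots were left out, spots of a probe were averaged, and limma 3.58.1 in R 4.3.3 compared the treatments over 30367 probes with Benjamini-Hochberg adjustment. The gene name column was empty, so genes were named through RefSeq accessions with a table of GRCr8 used for names, which gave a symbol for 17998 probes. The probe with the highest mean stood for a gene.

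The members and lists were chosen with earlier results of these data known. Every array's value is given for genes past an unadjusted p of 0.05 or without overlap, if a whole treatment's arrays were well above background, the brightest of each role group, Itgb6 and Cdh11 as genes the study lists, and at most 4 such genes of each pathway list. Values of other genes are given for description. The study's supplement lists Itga6, Itgb6 and Cdh11 as changed, and its criterion was 2-fold with p under 0.05. Itga6 had no named probe here, and neither Itgb6 nor Cdh11 met that criterion over the 6 arrays. Marker lists covered oocytes, adrenal medulla and cortex, macrophages, neutrophils and lymphocytes, endothelium, epithelium and oviduct, kidney tubule, granulosa cells, platelets, muscle, and Schwann cells and neurons. No depth of reads applies, and the number of arrays limits the precision. For 3 arrays in each group the smallest p of an exact permutation test is 0.1.

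Arrays with the same replicate number deviated together, with correlations of 0.298, 0.215 and 0.254 for numbers 1, 2 and 3, which is the sole basis for treating the numbers as pairs. LPS replicate 2 with saline replicate 3 gave 0.160, and LPS replicate 3 with saline replicate 2 gave 0.068. Pairs of a replicate 1 array with another number were negative. Numbers 2 and 3 thus stood apart from each other less than from number 1, and deviations from a mean of 3 arrays are not independent. Alternatives covered background correction, scaling, flagged and dim spots, the authors' table, the methods' t-test (the study names analysis of variance for its data in general and no test for the arrays), another limma setting, slide row, replicate block, probe choice and arrays left out. On simulated data for LPS against saline over 30367 probes, 90% of probes changed by a log2 of 1.5 and 99% of those changed by 2.5 had an unadjusted p under 0.05, as did 5.42% of unchanged ones. The simulated noise was independent for each probe and array, without the shared shifts of replicate numbers or dim probes described above. These shares therefore do not give the error or the power of the real comparison.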

Additional observations from a re-analysis of the deposited data

How the results depend on the processing

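The number of integrins and cadherins past an unadjusted p of 0.05 was 8. It was 5 with normexp background correction, 2 without background subtraction, 3 after quantile normalization, 3 without normalization between arrays (2 of them higher), 1 of 20 with dim probes left out, 2 with the slide row as a block and 3 without saline replicates 2 and 3. Among all genes the share was 15.9%, and in the same order 5.71%, 4.64%, 4.71%, 5.68%, 5.66%, 7.42% and 5.48%. With the replicate block it was 9 (20.0% of all genes), and the blocked fit changed the call of Itgb7, Itgb6 and Cdh26 and no other call among the 37 genes. The number at 2-fold was 1, in a fit where 1.57% of all genes met this criterion. It was 3 after quantile normalization (0.918% of all genes), 2 without normalization (3.7%) and 2 with flagged spots kept (1.6%). Blocking by slide row gave 2 as well, 1 higher and 1 lower in LPS, where 5.03% of all genes met it. Itga1 was not among these 2. The number without overlap was 8, and it was 4 without background subtraction, 2 after quantile normalization, 5 without normalization, 1 with dim probes left out and 19 against saline replicate 1 alone, beside 22.9% of all genes and then 7.55%, 10.6%, 13.5%, 11.2% and 54.9%. The number past adjustment was 0 under every alternative run. The median log2 fold change was -0.047 and turned to 0.33 without normalization, a setting that shifts all genes together.

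Of the pathway lists, the integrin-binding proteins had 0 genes past the unadjusted p with normexp and with dim probes left out, 3 without normalization, and 2 with the methods' t-test, the slide row, the replicate block and the mean over probes. The ligands had 1 after quantile normalization, with the slide row and without saline replicates 2 and 3, and 4 with the replicate block. The catenins had 0 with either background alternative, after quantile normalization, without normalization, with dim probes left out and with the slide row, and 2 with the methods' t-test. The desmosomal and large cadherins had 0 with either background alternative, after quantile normalization, without normalization, with dim probes left out and without saline replicates 2 and 3.

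Leaving out 1 array at a time, the counts ranged from 3 to 13 at the unadjusted p, 1 to 4 at 2-fold, 0 to 0 after adjustment and 8 to 21 without overlap, and the median from -0.12 to 0.042. The lists ranged from 1 to 6, 1 to 8, 1 to 1 and 0 to 4 in the order above. In these fits 5.01% to 23.3% of all genes were past the unadjusted p and 0.762% to 3.61% at 2-fold. Of all genes, 26% to 42.8% did not overlap. The highest counts of the integrin-binding proteins and the ligands came without LPS replicate 1 (22% of all genes). That of the desmosomal and large cadherins came without saline replicate 1 (23.3%).

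Itga1, Itgb7, Cdh17 and Spp1 kept their direction under the alternatives run, and those of other single genes changed sign as follows. After quantile normalization Cdh1 was 0.019 and Itgb1 0.061. Without normalization Cdh1 was 0.35, Itga5 0.087, Itga7 0.36, Itgad 0.30 and Itgb1 0.33. With the slide row Cdh1 was 0.49, Itga7 0.23 and Itgad 0.021. With normexp Itgal was -0.073 and Itgb1 0.026, and without background subtraction they were -0.080 and 0.035. Over all probes of the gene Itgb1 was 0.086. Without saline replicates 2 and 3 Cdh11 was -0.23, Cdh16 -0.97, Itga5 0.37, Itgb3bp -0.044 and Itgb6 -0.24. With single arrays left out Cdh1 ranged from -0.28 to 0.18, Cdh11 from -0.0072 to 0.40, Cdh16 from -0.18 to 0.73, Itga7 from -0.17 to 0.14, Itgad from -0.15 to 0.051 and Itgb1 from -0.15 to 0.050. The cause of these changes was not tested. Fits that leave 1 array in an arm assume that it varies like the others. Signal over background limited 13 of the 37 genes, for which no fold change was given.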

Other observations

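A further probe was present for Cdh11, Cdh13, Itga8, Itga10, Itgb1 and Itgb5. The dimmer probe of Cdh11 was at -3.96, -4.32 and -4.44 on LPS replicates 1, 2 and 3 and at -3.89, -5.57 and -5.86 on saline replicates 1, 2 and 3, with a log2 fold change of 0.86 (SE 0.51, limma, adjusted p = 0.499) and only saline replicate 1 well above background among the saline arrays. For Itgb1 the dimmer probe gave 0.22 (SE 0.20, limma, adjusted p = 0.747), against -0.047 for the brighter one. For Cdh13 it gave 0.37 (SE 0.33, limma, adjusted p = 0.731), where the brighter probe was lower in LPS by less than its SE, and for Itgb5 it gave -0.025 (SE 0.32, limma, adjusted p = 0.940). The dimmer probe of Itga8 was well above background on no array, and that of Itga10 on no saline array.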
